A study of Mus musculus with 8 samples.

Results

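Erythroid and endothelial cells sorted from the mouse yolk sac at E11.5 (embryonic day) were compared over all 24454 gene rows of the deposited count table. The comparison took 6 of the 8 libraries of the series, chosen by sorting gate. The erythroid pools (replicates 4 to 6) held cells negative for VE-Cadherin and positive for GFP, and the endothelial pools (replicates 1 to 3) held cells positive for VE-Cadherin and negative for GFP. There were 3 pools of 25 cells on each side. Cells of both groups came from C57BL/6 animals with the miR144-451 +/GFP genotype, in which GFP reports on a pair of erythroid microRNAs, and were neither grown nor treated. Smart-seq2 was used to turn polyA RNA into cDNA, with 14 PCR cycles. The labels do not say whether pools came from separate embryos, so the spread that p-values rest on may be technical. In such pools, fewer cells of a type and less RNA per cell cannot be told apart.

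The yolk sac makes the first red cells of the embryo. These primitive erythroblasts circulate while they still have a nucleus and divide, fill with embryonic hemoglobin, and build the spectrin-based membrane skeleton that lets a red cell deform. The vessels around them are lined by endothelial cells, which hold each other through VE-Cadherin and other junction proteins, lay down a basement membrane, and take up material through scavenger receptors.

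Total counts were 3723128 to 4439165 in the endothelial and 5291843 to 7618444 in the erythroid libraries, and globin genes took 54.5% to 56.5% of the erythroid counts. The 3 embryonic globins and the ribosomal RNA precursor Rn45s together filled most of an erythroid library, so that the 3 most abundant genes held more counts than all others together, a share that took 419 to 479 genes in an endothelial library. Outside the globins the erythroid libraries held 2407560 to 3315510 counts. Levels are given as CPM, counts scaled to a common library size after weighting each library by its TMM factor (a trimmed mean of log ratios), which keeps the globins from pushing all other genes down. They are not shares of a library, and means are given with the SD over 3 pools. Where a level is compared between genes it is given as CPM per kb of exon. Differences are erythroid minus endothelial on the log2 scale, tested with edgeR's quasi-likelihood test on 12136 genes, and a gene is called higher or lower at an adjusted p under 0.05. Where a population had 0 counts the fold is a lower bound set by 3 counts over its 3 libraries. Reads carried no molecular identifiers, so bounds and intervals cover counting error only.

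Of the 12136 genes tested, 1745 were higher in the erythroid pools (14.4% of genes tested) and 3232 were lower (26.6%). These shares are the background for the counts of every gene list below. The 3 erythroid and 3 endothelial libraries did not overlap for 6162 genes (50.8%). The count filter took in all 8 libraries, so a gene could enter these shares through the libraries outside the comparison. With only the 6 compared libraries fitted, 10105 genes were tested, of which 1388 were higher and 2918 lower. The 2 directions were unlike in size. The median fitted log2 difference was 1.60 among the genes called higher and −7.19 among those called lower. A fitted difference of at least 8-fold was reached by 415 of the higher and 2422 of the lower genes. Of the lower genes 1791 had no count in any erythroid library, while 152 of the higher genes had none in an endothelial library. For such genes the fitted value can run far past the lower bound, so these medians and 8-fold counts overstate the sizes that the counts secure. The endothelial junction list, for example, had a median of −12.51 as fitted and −9.21 with such genes at their bound. Outside the globins the erythroid libraries also held fewer counts. The median over all tested genes was −0.36. Scaling by library size alone instead of TMM moved that median by −1.54 and called 420 genes higher and 7270 lower, and among called genes those that were higher made 5.46% in place of 35.1%. A gene higher by less than about that shift changes sign with the scaling, and 330 of the 1745 higher genes were called lower under library size alone.

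**Figure D1:**
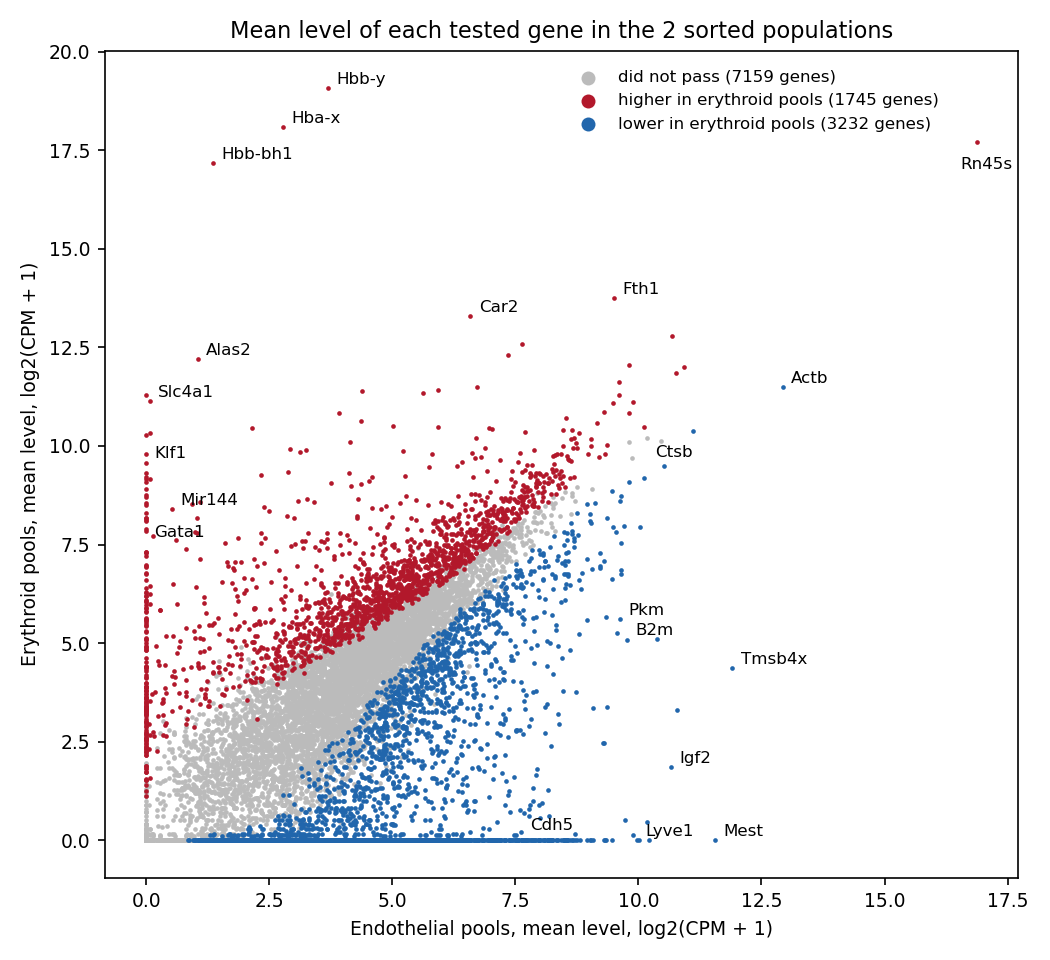
Each point is 1 of the 12136 tested genes, with its mean level over the 3 endothelial pools (x axis) and over the 3 erythroid pools (y axis), both as log2(CPM + 1). The 1745 higher genes (red) lie in a band close to the main cloud with a few far above it, whereas many of the 3232 lower genes (blue) lie on the line where the erythroid level is 0.

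The sorted protein and the reporter locus were read first. Cdh5, the gene of VE-Cadherin (chromosome 8, 104101625 to 104144511, plus strand, GRCm38), stood at 233, 173 and 220 CPM in endothelial replicates 1 to 3 and had no count in any erythroid library. Reads at the annotated Mir144 (chromosome 11, 78073005 to 78073070) stood at 337, 336 and 342 CPM in erythroid replicates 4 to 6 and at 0.661, 0.326 and 0.323 CPM in the endothelial replicates. Mir451a, 0.1 kb from Mir144, had no count in any of the 6 libraries. Of the genes around Mir144, Flot2, a membrane scaffold protein gene 12.6 kb away, was 2.28-fold higher in erythroid pools (adjusted p = 0.0354), while Eral1, 0.306 kb away, stood at 4.89, 9.52 and 18.6 CPM against 19.3, 18.4 and 24.4 CPM and did not pass. Traf4, Dhrs13, Phf12 and Nek8 did not pass either. The sign of Flot2 reversed under library size alone, and its call was lost without any 1 of the endothelial pools or erythroid replicate 6.

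The 3 embryonic globins were the most abundant protein-coding transcripts of the erythroid pools. Hbb-y, the main embryonic beta-type chain, stood at 562290, 556717 and 531337 CPM in the erythroid replicates and at 9.92, 10.1 and 15.8 CPM in the endothelial replicates. Per kb of exon the order in erythroid pools was Hbb-y at 869059, Hba-x, the embryonic alpha-type chain, at 295723 and Hbb-bh1, a second beta-type chain, at 241591 CPM. Between the erythroid replicates these 3 genes varied little, the SD of Hba-x being 14961 around a mean of 277388 CPM. The fitted log2 differences were 15.49 (SE 0.40), 15.56 (SE 0.59) and 16.55 (SE 0.45) for Hbb-y, Hba-x and Hbb-bh1, with adjusted p from 1.74e-07 to 5.81e-07. Under limma-voom the differences were of like size, with a median of 15.76, but none of the 3 genes passed (adjusted p of 0.996 for Hbb-y, 0.998 for Hba-x and 0.878 for Hbb-bh1). The 6 adult globin genes listed (Hba-a1, Hba-a2, Hbb-b1, Hbb-b2, Hbb-bs and Hbb-bt) had 0 counts in all 6 libraries and were not tested, and whether the counting step left their reads out was not tested either. Globin genes resemble each other in sequence, so how the counting step divided reads among them is uncertain.

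Genes next to Hba-x on chromosome 11 did not move as a block. Snrnp25, which encodes a protein of the minor spliceosome and lies 67.4 kb away, stood at 216, 176 and 242 CPM in erythroid and 14.0, 26.6 and 7.43 CPM in endothelial pools, 13.2-fold higher (adjusted p = 0.000185). Nprl3, 8.69 kb from Hba-x, whose introns hold the known alpha-globin enhancers, stood at 25.2 ± 13.4 against 11.3 ± 1.21 CPM and did not pass, nor did Mpg, which lies within Nprl3, and Rhbdf1, which lies between Nprl3 and Snrnp25. Il9r was near 0 in both populations and was not tested.

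Hemoglobin needs heme, which is built from glycine and succinyl-CoA in a chain of enzyme steps. The genes of this pathway were higher in erythroid pools in 13 of 14 cases, against 14.4% of all genes tested, with a median log2 difference of 5.10 against −0.36. The libraries did not overlap for any of the 14, against 50.8% of all genes tested. Alas2, the erythroid form of the first enzyme (chromosome X, 150547375 to 150570638), stood at 4652, 4715 and 4707 CPM in erythroid and at 2.25, 0.978 and 0 CPM in endothelial pools (log2 difference 11.98, SE 0.63, adjusted p = 2.74e-06). Next in the pathway, Alad rose from 104 ± 28.6 to 2881 ± 44.6 CPM and Urod from 31.4 ± 6.63 to 1452 ± 36.7 CPM. The last enzyme, Fech, which inserts iron, rose 135-fold to 2694 ± 245 CPM. Per kb the erythroid level was 1952 CPM for Alas2, 1539.7 for Alad and 560 for Urod, and lower for the later enzymes Cpox (32.9) and Ppox (88.5). The mitochondrial carriers and transporters of the pathway were higher too, Tmem14c by 11.3-fold, Slc25a39 from 102 to 822 CPM and Abcb10 from 4.04 to 608 CPM. The exception was Alas1, the form of the first enzyme used by other cells, at 56.9, 12.5 and 96.3 CPM in endothelial and 0, 6.03 and 0 CPM in erythroid pools (adjusted p = 0.0144). That call was lost without endothelial replicate 3.

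Of 23 iron handling genes tested, 12 were higher and 4 lower, against 14.4% and 26.6% of all genes tested. Their median log2 difference was 2.10, and under library size alone 9 were higher and 10 lower. Tfrc, which takes up transferrin-bound iron, stood at 371, 431 and 471 CPM in erythroid and 37.4, 45.5 and 31.2 CPM in endothelial pools, 11.2-fold higher (adjusted p = 4.37e-06). Tfr2, the second transferrin receptor, had no endothelial count and stood at 58.4 ± 12.2 CPM. Steap3, which reduces iron in the endosome, rose from 3.73 to 122 CPM, and Slc11a2, which moves it to the cytosol, from 14.6 to 102 CPM. Slc25a37, mitoferrin 1, which carries iron into mitochondria for heme, stood at 1807, 1896 and 1798 CPM against 15.1, 16.8 and 10.7 CPM, 129-fold higher (adjusted p = 1.93e-07). Glrx5, of iron-sulfur cluster assembly, was 15.8-fold higher. Transcripts of iron storage genes were high. The ferritin heavy chain gene Fth1 stood at 13708 ± 603 against 721 ± 185 CPM. Ftl1, the light chain gene, stood at 7112 ± 364 against 1651 ± 602 CPM. Ferritin pseudogenes make both levels uncertain. Slc40a1, ferroportin, the iron exporter, stood at 89.5, 65.0 and 93.6 CPM in erythroid and 139, 216 and 115 CPM in endothelial pools (log2 difference −0.92, adjusted p = 0.0196). Without endothelial replicate 2 or erythroid replicate 5 that call was lost, and 2 iron genes were lower. Hmox1, which breaks heme down, had 1 count in the erythroid libraries against 182 ± 59.8 CPM, a ratio of 1885 with a 95% counting interval of 338 to 74481. Heph, a ferroxidase that acts with the exporter, had no erythroid count. Slc40a1 and Hmox1 are also genes of macrophages, whose 16 listed markers summed to 1193, 3673 and 1166 CPM in endothelial and 0 CPM in erythroid pools. The part of those cells in these differences was not tested.

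The red cell membrane skeleton was the list of more than 3 genes with the highest median, 9.68 with 3 genes at their bound. Of its 11 genes 10 were higher and 1 lower. Slc4a1, the anion exchanger that anchors the skeleton (chromosome 11, 102348824 to 102366203, minus strand), stood at 2163, 2347 and 2292 CPM in erythroid pools and had 1 endothelial count, a ratio of 44869 with a 95% counting interval of 8052 to 1772320. Sptb, the beta spectrin of red cells, stood at 272 ± 26.7 CPM and had no endothelial count, at least 1800-fold higher. Ank1, the ankyrin that joins spectrin to Slc4a1, stood at 76.0, 95.8 and 86.4 CPM, Epb42 at 570 ± 30.8 CPM and Dmtn, which bundles actin, at 401 ± 42.0 CPM. Per kb, the scale on which the genes can be set side by side, Slc4a1 stood at 464, Epb42 at 105, Sptb at 22.4 and Ank1 at 6.36 CPM in erythroid pools. Mpp1, a palmitoylated adaptor of the same complex, was the gene that was lower, at 20.7, 23.2 and 4.57 CPM against 118, 209 and 126 CPM (adjusted p = 0.0013). Add1, the widely used alpha-adducin, was higher by 0.62 on the log2 scale under TMM and turned lower under library size alone. The call of Add1 was also lost without endothelial replicate 1 or 3 or erythroid replicate 4 or 5.

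Blood group and surface proteins followed, with 14 of 17 genes higher, 1 lower and a median log2 difference of 4.82. The Rh complex was represented by Rhag at 893 ± 68.1 CPM and Rhd at 1292 ± 72.4 CPM, and the Kell protein by Kel at 641 ± 38.6 CPM, against 1 endothelial count in all for these 3. Ermap, a surface protein of the butyrophilin type, stood at 432 ± 51.1 CPM and Icam4, the LW blood group adhesion protein, at 288 ± 88.2 CPM, both with no endothelial count. Surface genes with wide use differed less. Bsg was 2.73-fold higher under TMM, with a log2 difference of −0.10 under library size alone. Cd47, the signal against engulfment, stood at 180 ± 44.2 against 175 ± 31.4 CPM. Slc2a1, the glucose transporter, also had overlapping libraries, at 160 ± 9.30 against 150 ± 60.3 CPM. Aqp1, a water channel known from adult red cells and from endothelium, was the gene that was lower, with no erythroid count and 37.6, 14.3 and 42.7 CPM in endothelial pools (adjusted p = 0.000425).

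Promoters of the genes higher by a fitted 8-fold or more were searched for letters known from erythroid regulation. The search ran from 250 bases before to 50 after the RefSeq start (GRCm38.p6), on both strands. The motif CTG, 9 free bases, GATAA joins part of an E-box, which TAL1 binds, to a GATA site at a set distance. It was found in 14 of the 342 such promoters (4.09%), against 49 of 9738 promoters of all tested genes (0.503%) and 240 of 27025 promoters in the table (0.888%). The shorter GATAA, which the longer motif contains, was found in 23.4%, 16.1% and 25.8% of the same sets, and CCNCNCCC, the type of site that KLF1 binds, in 70.8%, 68.7% and 49.1%. Promoters were matched for 82.4% of the higher genes and 80.2% of all tested genes. For the genes at least 8-fold lower only 77.5% were matched, so that set is less complete. Its shares were 0.586% for the longer motif, 17.2% for GATAA and 70.7% for CCNCNCCC. The share of CCNCNCCC was thus about the same in the higher and the lower genes. These are descriptions of letters, with no test, and a match is not a bound site. The 7 with the highest erythroid level were those of Rhag, Kel, Ermap, Icam4 and Epb42 of the membrane lists, of Gfi1b, a repressor of the erythroid and megakaryocytic lines, and of Pklr, the red cell pyruvate kinase. The stretch that holds the motif in these 7 is printed below in the direction of the gene, with the fixed letters of the motif in capitals. Where the motif lies on the opposite strand it reads as TTATC, 9 free bases, CAG. The motif began 31 bases before the start in Rhag, 67 in Kel and Ermap, 43 in Icam4, 46 in Pklr, 131 in Gfi1b and 226 in Epb42. The stretches are chr17:40811078-40811148 (plus strand, Rhag), chr6:41704336-41704432 (minus, Kel), chr4:119190006-119190102 (minus, Ermap), chr9:21029349-21029431 (plus, Icam4), chr2:121037047-121037127 (minus, Epb42), chr2:28622057-28622153 (minus, Gfi1b) and chr3:89136056-89136141 (plus, Pklr).
Rhag: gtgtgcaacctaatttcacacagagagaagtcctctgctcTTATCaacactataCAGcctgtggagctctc
Kel: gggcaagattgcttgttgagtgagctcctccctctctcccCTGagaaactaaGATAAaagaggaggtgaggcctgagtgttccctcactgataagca
Ermap: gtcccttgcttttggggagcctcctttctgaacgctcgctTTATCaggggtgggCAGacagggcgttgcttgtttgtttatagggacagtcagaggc
Icam4: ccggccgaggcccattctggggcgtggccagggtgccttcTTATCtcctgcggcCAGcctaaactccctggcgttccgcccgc
Epb42: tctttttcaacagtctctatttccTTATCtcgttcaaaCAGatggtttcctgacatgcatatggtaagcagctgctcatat
Gfi1b: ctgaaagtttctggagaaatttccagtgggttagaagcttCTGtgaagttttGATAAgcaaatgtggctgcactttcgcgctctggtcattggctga
Pklr: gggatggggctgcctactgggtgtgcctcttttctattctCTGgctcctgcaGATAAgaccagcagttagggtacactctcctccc

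Mean levels of these 7 genes were 893, 641, 432, 288, 570, 194 and 158 CPM in erythroid pools, in the order in which they are printed. In endothelial pools the means were at most 0.529 CPM, that of Gfi1b, which stood at 1.59 CPM in endothelial replicate 1. The other 7 promoters with the motif belonged to genes of lower level, among them Grap2, Slfn14 and Ackr1 (chosen after their values were seen), which stood at 54.3 ± 20.7, 33.4 ± 6.39 and 42.2 ± 26.6 CPM with no endothelial count.

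Transcription factors of the erythroid program were higher in 10 of 18 cases and lower in 2, with a median log2 difference of 1.54. The count of lower genes was 1 without any 1 of the endothelial pools or erythroid replicate 4. Under library size alone 8 were higher and 4 lower. Klf1, which drives globin and membrane genes, stood at 749, 765 and 776 CPM, and Gata1 at 240, 327 and 296 CPM, both with no endothelial count. Nfe2, Gfi1b and Tal1 stood at 290 ± 16.1, 194 ± 37.2 and 170 ± 11.8 CPM against 1.03 ± 1.79, 0.529 ± 0.916 and 8.12 ± 5.56 CPM. Tal1, its relative Lyl1 and its partner Lmo2 were present in both populations. Lyl1 stood at 155 ± 19.5 against 57.9 ± 13.7 CPM (its sign turns under library size alone) and Lmo2 at 76.4 against 24.0 CPM. Gata2, the GATA factor of blood progenitors and endothelium, was the reverse of Gata1, with 6.74, 8.80 and 24.9 CPM in endothelial pools and no erythroid count (adjusted p = 0.00239). Runx1, needed to form definitive blood from endothelium, was low in both, at 2.38 ± 2.15 CPM in erythroid and 4.86 ± 2.14 CPM in endothelial pools, and Myb, needed by definitive but not primitive erythroid cells, had no count in either.

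Of 12 erythropoietin signalling genes 5 were higher and 4 lower, against 14.4% and 26.6% of all genes tested, and under library size alone 1 was higher and 4 lower. Epor, the receptor, stood at 191, 241 and 226 CPM against 6.48, 12.9 and 23.6 CPM, 15.3-fold higher (adjusted p = 0.000122). Its kinase gene Jak2 was 2.29-fold higher (adjusted p = 0.0457), a call lost under DESeq2, without any 1 library other than endothelial replicate 2, and under several scalings, and Stat5b, the signal carrier, rose from 7.16 ± 2.11 to 24.0 ± 5.88 CPM. Kit, the stem cell factor receptor of early erythroid progenitors, had no erythroid count and stood at 28.4, 11.1 and 59.1 CPM in endothelial pools, where its ligand gene Kitl also stood at 34.8, 32.3 and 54.1 CPM. Ptpn6, a phosphatase that damps receptor signals and is abundant in white blood cells, stood at 39.9, 174 and 58.6 CPM in the endothelial replicates and 0 in erythroid pools. Its level was highest in the endothelial replicate that also had the highest macrophage sum.

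**Figure D2:**
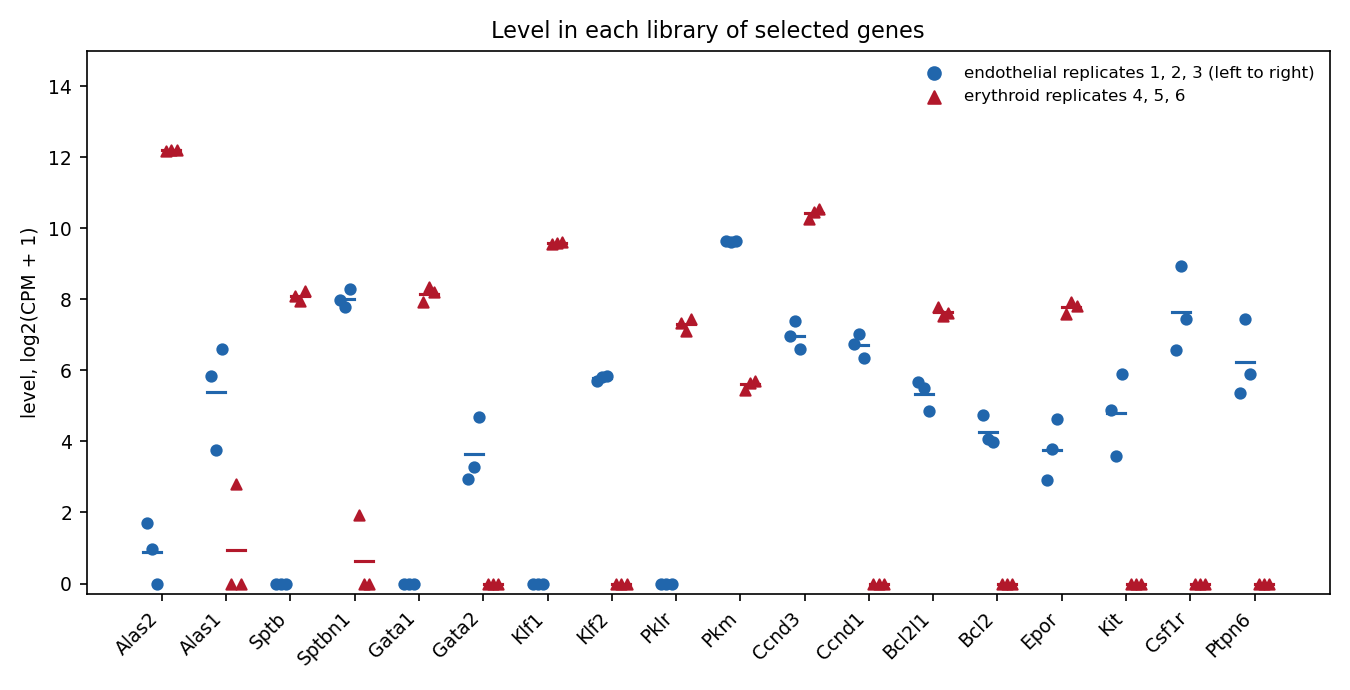
Level in each of the 6 libraries, as log2(CPM + 1), for 18 genes, with a short line at the mean of the log2 values of each population (blue circles endothelial, red triangles erythroid). Genes of a pair such as Alas2 and Alas1, Gata1 and Gata2, or Klf1 and Klf2 sit on opposite sides, and Csf1r and Ptpn6 are high in endothelial replicate 2.

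A set of 38 pairs of related genes was compared, most of which have 1 member known from red cells or other blood cells. In 16 pairs the 2 members were called in opposite directions, in 5 in the same direction, in 14 pairs 1 member was called and in 3 none. Of all genes tested 14.4% were higher and 26.6% lower. The pairs were chosen for such members and with earlier results of these data known, so these counts are descriptions only. In some pairs the transcript used was almost wholly exchanged. As a share of the pair's CPM per kb, Sptb against Sptbn1 went from 0% to 99.8%, Alas2 against Alas1 from 4.76% to 99.98%, Gata1 against Gata2 and Klf1 against Klf2 from 0% to 100%. Klf2, which responds to blood flow in endothelium, stood at 54.0 ± 2.98 CPM there. Pklr rose to 83.6% of pyruvate kinase transcripts per kb from 0%, as Pkm fell from 797, 784 and 793 CPM to 42.7, 49.5 and 51.2 CPM.

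Other exchanges were in the membrane skeleton, mitochondria and cell cycle. Epb41, protein 4.1 of red cells, went from 8.57% to 89.4% of the pair with Epb41l2, and Add2 from 0.708% to 94.3% of the pair with Add3. Ccnd3 rose from 129 ± 35.1 to 1377 ± 132 CPM while Ccnd1, another D-type cyclin, fell from 106 ± 24.8 CPM to no count. Bcl2l1, the survival gene of erythroid cells, rose from 40.8 ± 11.4 to 199 ± 17.6 CPM while Bcl2 fell from 18.8 ± 6.18 CPM to no count. Eif2ak1, the heme-regulated kinase that slows translation when heme is short, was 12.6-fold higher, and Eif2ak3, its relative in the endoplasmic reticulum, had no erythroid count against 15.2, 14.8 and 15.2 CPM. Slc25a4, a mitochondrial ADP/ATP carrier, fell from 273 ± 19.8 to 5.62 ± 2.50 CPM, while Slc25a5 stood at 588 ± 51.3 against 415 ± 82.1 CPM (adjusted p = 0.0295). Under library size alone the log2 differences of Slc25a5 and Jak2 were −1.04 and −0.34. The call of Slc25a5 was also lost without endothelial replicate 1 or 3 or any 1 erythroid pool. Foxo3 over Foxo1 and Tubb1 over Tubb6 were opposite as well, but Foxo3 (13.1, 10.5 and 0.326 CPM) and Tubb1 (24.9, 9.52 and 2.28 CPM) varied widely between erythroid pools. The mitoferrins Slc25a37 and Slc25a28 were also opposite, with Slc25a28 at 6.28 ± 1.38 CPM in endothelial pools and an adjusted p of 0.0457. The call of Slc25a28 was lost without any 1 of the endothelial pools or erythroid replicate 4 or 5. Leaving out 1 library in turn left 11 to 15 opposite pairs. The lowest count came without erythroid replicate 4, when the pairs of Slc25a37, Foxo3, Tubb1, Jak2 and Slc25a4 were lost, those of Foxo3 and Tubb1 because neither gene then passed the count filter.

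Pairs did not all divide. Tmod1, the red cell tropomodulin that caps actin, had no endothelial count and stood at 132.6, 126.9 and 110.5 CPM in erythroid pools, but Tmod3 did not pass, at 81.1 ± 33.2 against 107 ± 6.81 CPM. Prdx2, the peroxiredoxin of red cells, rose from 28.1% to 92.8% of the pair with Prdx1 although Prdx1 overlapped between the populations at 391 ± 43.4 and 417 ± 51.2 CPM. Tal1 and Lyl1, Ube2l6 and Ube2l3, and Tfrc and Tfr2 were higher in both members. Under library size alone, however, Ube2l3 was called lower, and Lyl1 had a log2 difference of −0.12. The call of Ube2l3 was also lost without endothelial replicate 2 or 3 or erythroid replicate 4 or 5. Tpm1 and Tpm4 were lower in both. Glucose transporters Slc2a1 and Slc2a3, the LC3 genes Map1lc3a and Map1lc3b and the cell cycle inhibitors Cdkn1b and Cdkn1a were not called in either member.

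**Figure D3:**
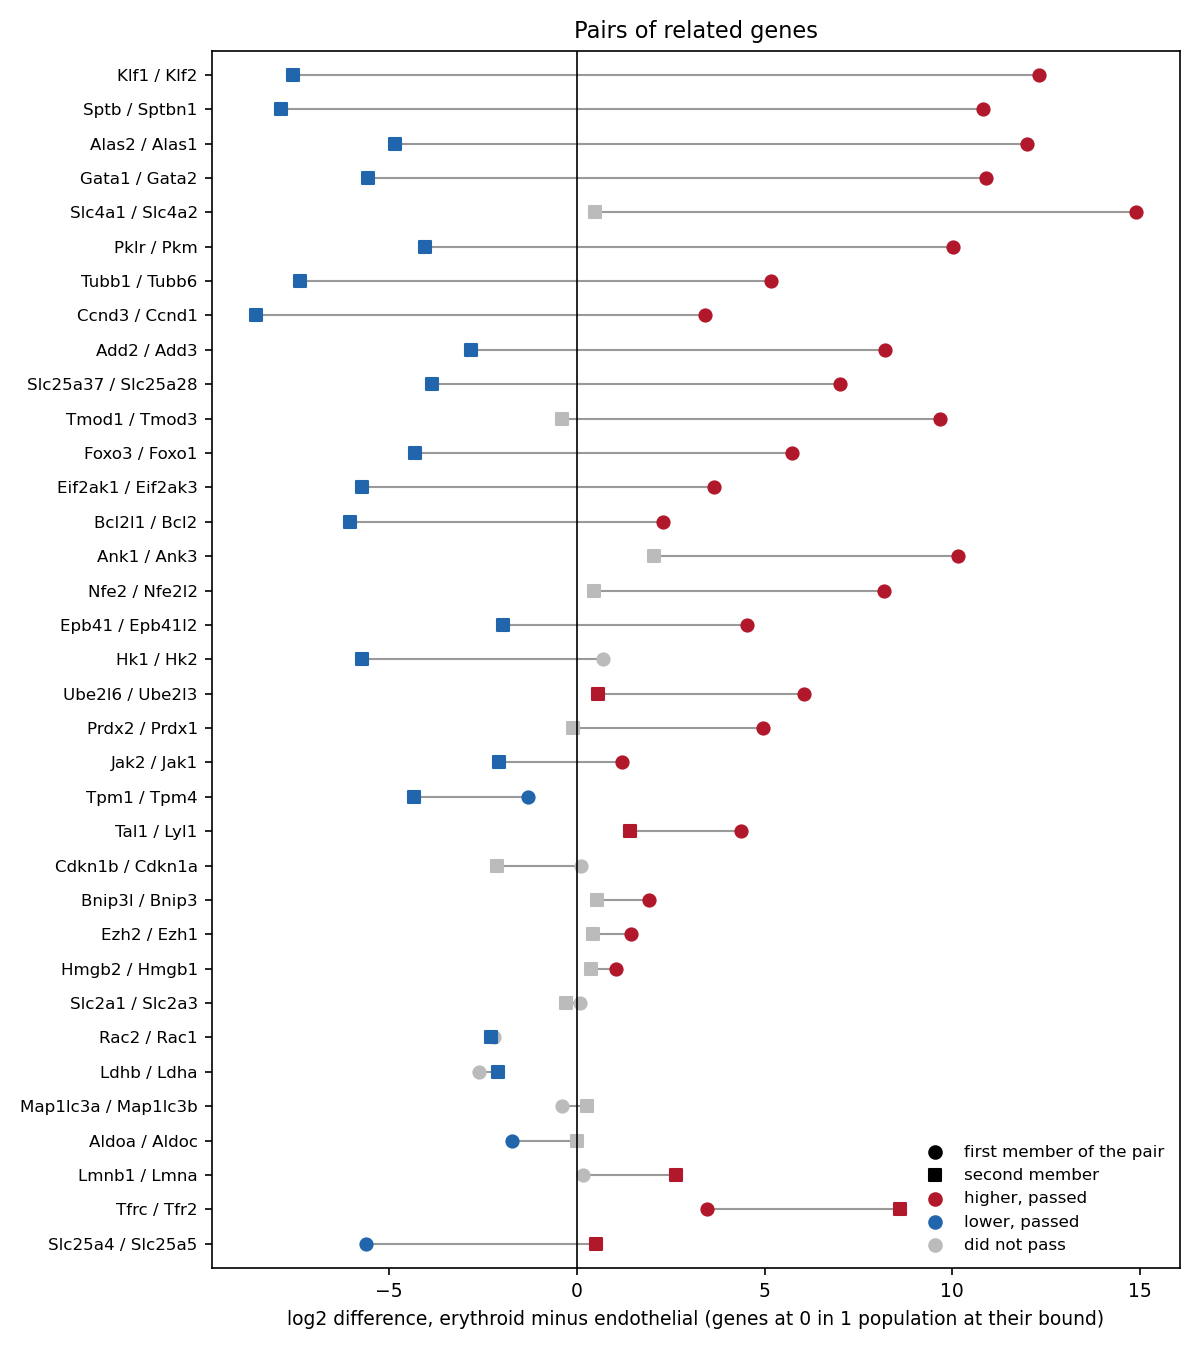
The log2 difference (erythroid minus endothelial) of both members of 35 of the 37 pairs in which both were tested, the member named first as a circle and the second as a square, red where called higher, blue where called lower and grey where not called. In 15 of these pairs a red and a blue mark lie on opposite sides of 0, and genes with no count in 1 population are drawn at their lower bound.

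Enzymes that guard against oxygen damage were higher in 12 of 17 cases and lower in 1, with a median log2 difference of 1.93, and in 6 and 5 cases under library size alone. Gpx1, a glutathione peroxidase, stood at 6246, 6526 and 5814 CPM against 174, 241 and 179 CPM (31.3-fold, adjusted p = 5.81e-07). Prdx2 stood at 5064 ± 167 against 163 ± 34.4 CPM, and Gclm, a subunit of the enzyme that starts glutathione synthesis, rose from 6.97 to 289 CPM. Sod1 and Cat, for superoxide and peroxide, were 3.83-fold higher and at 308 against 81.0 CPM. Prdx4, which works in the endoplasmic reticulum, was lower, at 42.5 ± 9.72 against 82.6 ± 19.5 CPM. Metallothionein genes Mt1 and Mt2, which bind zinc and copper, rose to 2740.5 ± 513 and 917 ± 160 CPM from 60.2 ± 23.3 and 7.75 ± 5.11 CPM. Mt2 was chosen after its values were seen.

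Glycolysis was lower in 8 of 18 genes and higher in 4, against 26.6% and 14.4% of all genes tested. The 18 include Aldoc, which had no count in any of the 6 libraries compared. Bpgm, which makes 2,3-bisphosphoglycerate, the regulator of oxygen release from hemoglobin, stood at 1038, 895 and 942 CPM against 0.661, 6.52 and 18.3 CPM (adjusted p = 0.000241). The muscle-type phosphofructokinase gene Pfkm was 7.47-fold higher. The genes that were lower included Ldha by 4.25-fold, Aldoa by 3.32-fold, Gpi1 by 4.69-fold and Pgk1 by 2.81-fold, and Gapdh did not overlap between the populations but did not pass, at 246 ± 19.6 against 301 ± 26.7 CPM. Aldoa, Gapdh and Pgk1 have processed pseudogenes, so their levels are uncertain. Car2, carbonic anhydrase 2, which turns carbon dioxide to bicarbonate for the exchanger Slc4a1, stood at 9841, 11100 and 9207 CPM against 92.3, 102 and 91.3 CPM, 106-fold higher (adjusted p = 1.93e-07). Car8 and Car13 had no erythroid count, and Car13 kept its call in 1 of the 6 fits that left out a library.

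Of 32 cytoplasmic ribosomal protein genes 31 were higher (median log2 difference 1.17), and 3 were higher and 19 lower under library size alone. Their many pseudogenes make these levels uncertain. Replication licensing genes were higher in 15 of 21 cases with none lower (median 1.33), the nuclear-encoded respiratory chain in 22 of 32 (median 0.78) and the proteasome in 15 of 28 (median 0.55), again with none lower, and under library size alone these counts were 1 higher and 6 lower, 0 and 26, and 0 and 26. The division genes varied between erythroid pools. Mcm6, a helicase subunit loaded at replication origins, stood at 837, 537 and 803 CPM and Mcm7 at 404, 211 and 375 CPM, lowest in replicate 5. Ube2c, a mitotic ubiquitin enzyme, stood at 146, 663 and 537 CPM and Ccna2, cyclin A2, at 483, 732 and 758 CPM, lowest in replicate 4. The sum of the licensing list was 3819, 2761 and 3651 CPM in erythroid replicates 4, 5 and 6, and that of the tubulins 5477, 7287 and 7382 CPM. In endothelial pools Mcm6 stood at 206, 208 and 226 CPM, below each erythroid pool, while Ube2c overlapped at 255, 287 and 192 CPM and did not pass. Cdk6, a partner of D-type cyclins, had no erythroid count and stood at 54.7, 29.8 and 35.7 CPM in endothelial pools.

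**Figure D4:**
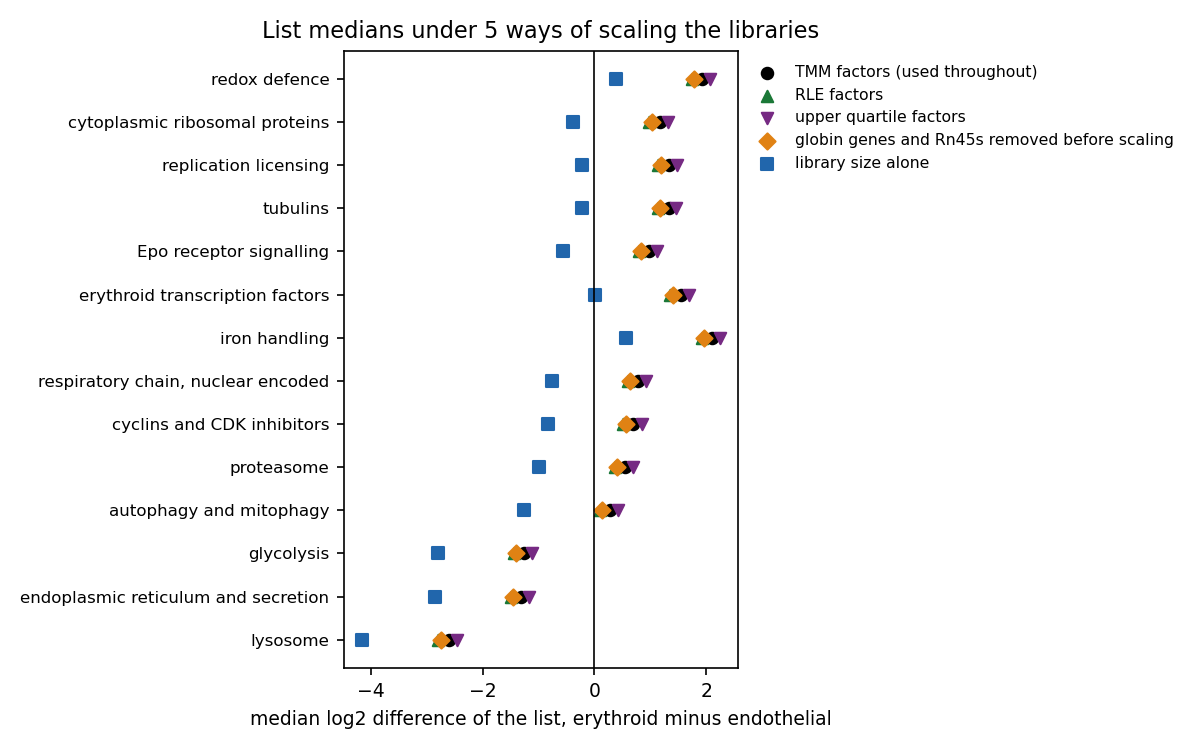
Median log2 difference (erythroid minus endothelial) of 14 gene lists under 5 ways of scaling the libraries. Under the 4 methods other than library size alone each median shifts little and keeps its side of 0, and under library size alone (blue squares) the ribosomal, licensing, tubulin, Epo receptor, respiratory, cyclin, proteasome and autophagy medians lie below 0.

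Of the ubiquitin and nuclear export list, 6 of 12 genes were higher and none lower, and under library size alone 5 and 1. Ube2l6, an ubiquitin and ISG15 conjugating enzyme, stood at 1201, 1116 and 969 CPM against 14.0, 5.70 and 29.9 CPM, and Trim10, an erythroid ubiquitin ligase gene, at 538 ± 47.0 CPM with no endothelial count. Trim58, which acts on dynein in late erythroblasts, was low, at 3.96, 12.4 and 15.3 CPM. Of 15 autophagy genes 3 were higher and 1 lower, a share of higher genes near the 14.4% of all genes tested, and under library size alone 0 were higher and 11 lower. Bnip3l, the receptor that removes mitochondria from red cells, was 3.80-fold higher (257 ± 6.19 against 67.6 ± 15.5 CPM, adjusted p = 7.9e-05), and Bnip3 did not pass. In the BCL2 family 1 gene of 14, Bcl2l1, was higher and 7 were lower, against 14.4% and 26.6% of all genes tested. Those lower included the death-promoting genes Bik, Pmaip1, Bok and Bak1, all at under 3 CPM in erythroid pools. Bak1 lost its call without any 1 erythroid pool. Bax, the common executor, stood at 95.2 ± 9.09 against 88.2 ± 18.0 CPM and did not pass.

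Genes of endothelial identity were lower in the erythroid pools across whole lists. All 24 junction and surface genes tested were lower, 17 of them with no erythroid count, and so were all 21 receptors, 17 with no count. The median log2 differences were −9.21 and −8.51 with those genes at their bound. Pecam1, an adhesion protein between endothelial cells, stood at 453, 309 and 499 CPM, Cldn5, a tight junction protein, at 502, 401 and 648 CPM, and Clec14a, an endothelial lectin, at 609, 454 and 557 CPM in the endothelial replicates, all with no erythroid count. Among receptors, Tek for angiopoietins stood at 391 ± 75.3, Flt1 and Kdr for VEGF at 286 ± 80.6 and 286 ± 104, Aplnr for apelin at 238 ± 47.3 and Nrp1 for semaphorins and VEGF at 207, 197.5 and 221 CPM. Ligands were lower in 17 of 19 cases. Igf2, insulin-like growth factor 2, stood at 1722, 1018 and 2097 CPM against 2.80, 3.81 and 1.30 CPM (adjusted p = 1.52e-06), and the Notch ligand genes Dll4 and Jag1 at 44.6 ± 35.3 and 62.5 ± 16.7 CPM with no erythroid count. Dll4 (40.1, 11.7 and 81.9 CPM), the chemokine gene Cxcl12 (139, 13.5 and 39.6 CPM) and the caveolin gene Cav1 (204, 73.3 and 344 CPM) were lowest in endothelial replicate 2.

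Endothelial transcription factors were lower in 22 of 26 cases. Id3, a BMP target, stood at 307, 160 and 319 CPM and Sox18, a vessel and lymphatic factor, at 143, 185 and 270 CPM, both with no erythroid count, and Ets1 and Ets2 stood at 132 ± 26.2 and 134 ± 33.4 against 1.96 ± 3.39 and 2.77 ± 2.42 CPM. Basement membrane and matrix genes were lower in all 20 cases. Sparc, a collagen-binding matrix protein, stood at 1349, 837 and 1393 CPM and Col4a1, a chain of basement membrane collagen, at 722, 520 and 650 CPM with no erythroid count. Fn1, fibronectin, kept a level of 31.0, 69.8 and 53.5 CPM in erythroid pools, against 303, 276 and 323 CPM. Of 16 integrins 11 were lower. Itgb1, the common beta 1 chain, stood at 46.8 ± 11.2 against 493 ± 54.4 CPM, and Itga2b, the platelet chain also found on early blood cells, overlapped at 32.9 ± 11.9 and 23.8 ± 4.48 CPM.

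Scavenger receptors were lower in erythroid pools in 10 of 11 cases (median log2 difference −9.89 with 9 genes at their bound). Lyve1, the hyaluronan receptor of yolk sac and lymphatic vessels, stood at 1083, 963 and 951 CPM, and Stab2, which clears hyaluronan, at 1030, 953 and 858 CPM. Mrc1 and Stab1, shared by sinusoidal endothelium and macrophages, stood at 505, 787 and 662 and at 299, 561 and 353 CPM, highest in replicate 2, whereas Lyve1 and Stab2 were not. Plvap, the protein of endothelial diaphragms, stood at 1243, 791 and 1066 CPM and Dab2, an endocytic adaptor, at 706, 1148 and 696 CPM. Caveola and endocytosis genes were lower in 12 of 15 cases, and the clathrin light chain gene Cltb was the 1 that was higher, by 2.25-fold. Under library size alone the log2 difference of Cltb was −0.38. Its relative Clta was 4.45-fold lower.

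Cytoskeleton, secretion and lysosome genes were lower but rarely absent. Of 27 actin and intermediate filament genes 25 were lower and 2 higher. Tmsb4x, which binds actin monomers, stood at 24.7, 16.2 and 18.3 CPM against 3872, 4440 and 3214 CPM, 195-fold lower (adjusted p = 4.11e-07), while Actb, beta-actin, was 2.74-fold lower and still stood at 2860 ± 61.9 CPM. Lmna, a nuclear lamina protein, and Ezr, which ties actin to the membrane, were the 2 that were higher, by 6.24-fold and 3.36-fold. Endoplasmic reticulum genes were lower in 19 of 25 cases, with the chaperone gene Hspa5 at 226 ± 75.4 against 748 ± 94.0 CPM and Pdia3 4.33-fold lower. Sec61g and Sec61b, small subunits of the translocation channel, were the 2 that were higher, by 5.92-fold and 1.43-fold. Under library size alone Sec61b was lower, with 1 gene of the list higher and 24 lower, and Sec61b kept its call in 1 of the 6 fits that left out a library. Lysosome genes were lower in 19 of 23 cases, Ctsl by 69.9-fold, but Ctsb and Ctsd overlapped, at 1174 ± 129 against 1148 ± 470 and 475 ± 9.24 against 529 ± 134 CPM.

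Antigen presentation, stress and imprinted genes were also on the endothelial side. Of 11 MHC class I genes 9 were lower, and B2m, the light chain, stood at 32.6, 25.4 and 41.1 against 891, 893 and 833 CPM (26.4-fold, adjusted p = 8.83e-07). Annexin and S100 genes were lower in 12 of 14 cases, Anxa2 from 952, 381 and 789 CPM to no count. Immediate early genes, which react to cell handling as well as to signals, were lower in 12 of 14 cases, Fos by 27.8-fold. Btg2, a brake on division, was 2.03-fold higher under TMM, with a log2 difference of −0.52 under library size alone. The Btg2 call was lost without endothelial replicate 1 or 2 or erythroid replicate 5. Imprinted genes were lower in 14 of 18 cases. Mest, expressed from the paternal copy, stood at 3745, 2440 and 2834 CPM with no erythroid count. H19, the noncoding neighbour of Igf2, was 2.02-fold lower, at 418, 449 and 305 against 851, 477 and 1034 CPM, where Igf2 was 612-fold lower. The H19 call was lost without endothelial replicate 1 or 3 or erythroid replicate 6. Gnas did not pass.

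**Figure D5:**
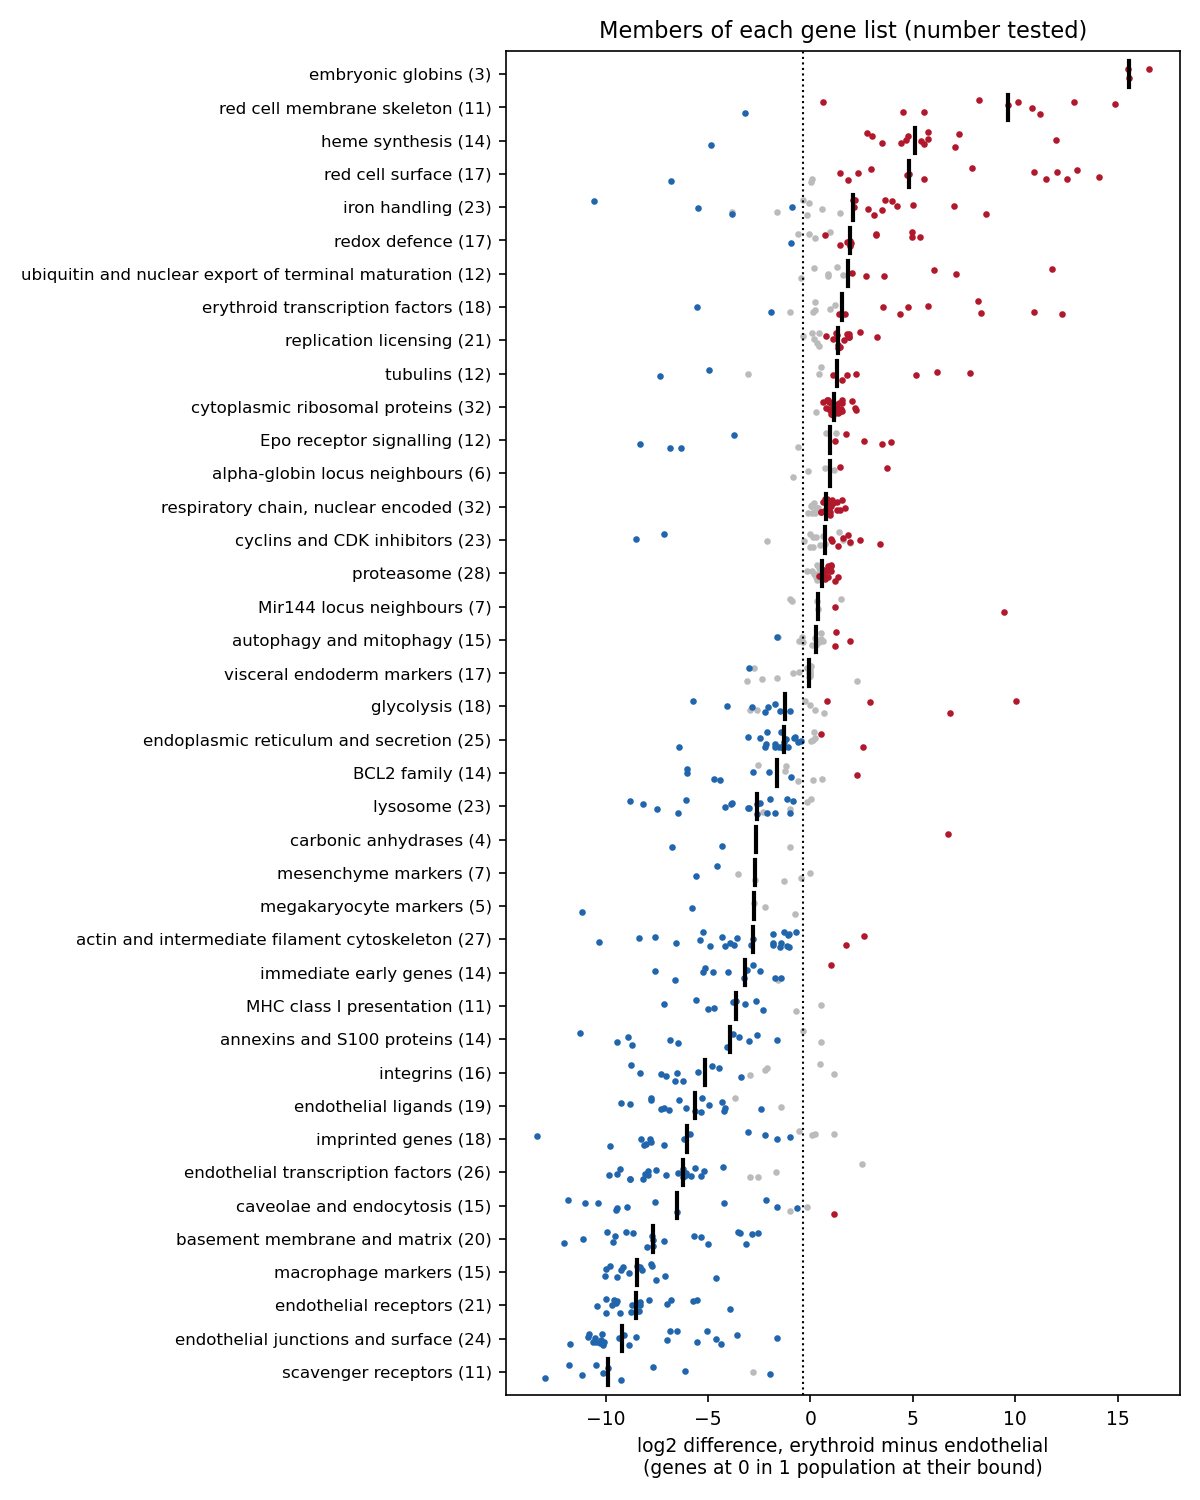
Each point is 1 tested gene of a list, placed at its log2 difference (erythroid minus endothelial), red where called higher, blue where called lower and grey where not called. The thick bar is the median of the list and the dotted line the median of all genes tested, and lists run from the scavenger receptors (−9.89) to the embryonic globins (15.56).

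Markers of other cells were read in the same pools. Of 15 macrophage genes all were lower in erythroid pools, where the 16 genes listed had no count, and their summed level in endothelial replicates 1, 2 and 3 was 1193, 3673 and 1166 CPM. Csf1r, the macrophage growth factor receptor, stood at 94.8, 488 and 173 CPM and the complement gene C1qb at 183, 510 and 200 CPM, highest in replicate 2. Among the genes named above, Ptpn6, Mrc1, Stab1, Dab2, Ctsb, Slc40a1, Mpp1 and Tmsb4x were also highest in that replicate, and so was Apoe, a lipid carrier of macrophages among others, at 686, 2009 and 757 CPM. Other genes named above were highest in endothelial replicate 2 as well, among them Gpx1, Car2, Tfrc, Slc25a37 and Ube2c. The share of all genes that were highest there was not counted. How far macrophages account for genes lower in erythroid pools was not tested. Megakaryocyte markers summed to 489, 928 and 570 CPM in endothelial pools and to 0 to 9.46 CPM in erythroid pools. Nearly all of the endothelial sum came from Pf4, at 476, 904 and 545 CPM. Pf4 was thus highest in replicate 2, as the macrophage sum was, and which cells held it was not tested. Visceral endoderm markers were low in both, at 30.5 to 56.7 and 10.8 to 25.7 CPM, with Afp at 16.1 ± 5.16 and 10.7 ± 3.03 CPM, and mesenchyme markers summed to 10.1 to 11.8 CPM in endothelial and at most 0.466 CPM in erythroid pools.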

How the data were processed

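The values deposited by the authors are unscaled counts of reads for each gene symbol in 8 libraries. The submitters' processing notes name HTSeq, FastQC and mm10, and their versions, the aligner and strandedness were not stated there. Positions and exon lengths came from GENCODE (GRCm38) and promoters from RefSeq (GRCm38.p6). In edgeR 4.0.16, genes passing filterByExpr (minimum count 10) were fitted with TMM factors and 1 mean per population over all 8 libraries, using the robust quasi-likelihood test with Benjamini-Hochberg adjusted p over 12136 genes. Alternatives covered the filter, scaling, test (DESeq2 1.42.0, limma 3.58.1), libraries fitted and each library left out. The fit was also run on simulated counts in which most genes had the same mean level in every population. That run could not check the scaling for libraries filled by globins. No 2 libraries were identical.

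The 42 lists (724 genes, 668 tested) and 38 pairs were chosen with earlier results of these data known. Genes were named by this rule: Cdh5 and Mir144, the 12 most abundant genes in each direction with at least an 8-fold difference, up to 6 called and 2 uncalled members per list and direction, all pair members, the genes of both loci, and 10 regulators and red cell genes whatever their values. Ackr1, Add1, Cat, Cpox, Ermap, Gclm, Grap2, Icam4, Mt2, Myb, Ppox, Slc11a2, Slc25a39, Slfn14 and Steap3 fall outside it and were named after their values were seen. Some genes are not reported here, and the counts of lists and pairs still include them.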

Additional observations from a re-analysis of the deposited data

How the results depend on the processing

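The TMM fit gave 1745 higher and 3232 lower genes. Against a 2-fold change 847 genes were higher, and under library size alone 420 were higher and 7270 lower. Every other setting kept both counts within 1.5 times, from 1388 to 1992 and from 2722 to 3874, and leaving out 1 library at a time gave 1507 to 1612 higher and 2946 to 3158 lower genes. The 16 opposite pairs became 12 with only the 6 compared libraries fitted and 18 under library size alone, and 11 to 15 with 1 library left out. No paired analysis was made, because the labels do not say which pools, if any, came from the same embryos. Of 189 named genes with a fit, 14 lost their call in at least 1 fit without a library: Add1, Alas1, Bak1, Btg2, Car13, Flot2, H19, Jak2, Sec61b, Slc25a28, Slc25a5, Slc40a1, Tubb1 and Ube2l3. Foxo3 and Tubb1 did not pass the count filter without erythroid replicate 4 or 5, nor did Bak1 without endothelial replicate 1 or 2, so that no call could be made there. Under limma-voom Car13, Flot2, H19, Hba-x, Hbb-bh1 and Hbb-y lost their calls. The common biological coefficient of variation, estimated over all 8 libraries, was 0.541. Sign changes of single genes, most of which did not pass the test, were as follows, and the cause was not tested for those outside library size alone. Under DESeq2 the sign of the log2 difference changed for Bax (−0.074), Cd47 (−0.15), Cdkn1b (−0.078), Ctsb (−0.15), Gnas (−0.11) and Slc2a1 (−0.096). With RLE factors the sign of the log2 difference changed for Bax (−0.074), Cd47 (−0.15), Cdkn1b (−0.080), Ctsb (−0.15), Gnas (−0.11) and Slc2a1 (−0.097). With globins and Rn45s removed before scaling the sign of the log2 difference changed for Bax (−0.033), Cd47 (−0.11), Cdkn1b (−0.039), Ctsb (−0.11), Gnas (−0.068) and Slc2a1 (−0.056). Under library size alone the sign of the log2 difference changed for Add1 (−0.93), Bax (−1.43), Bnip3 (−1.02), Bsg (−0.10), Btg2 (−0.52), Cd47 (−1.51), Cdkn1b (−1.45), Cltb (−0.38), Ctsb (−1.51), Dhrs13 (−1.16), Flot2 (−0.35), Gnas (−1.47), Itga2b (−1.08), Jak2 (−0.34), Lyl1 (−0.12), Map1lc3b (−1.27), Mpg (−0.81), Nek8 (−1.21), Nprl3 (−0.39), Rn45s (−0.72), Sec61b (−1.03), Slc25a5 (−1.04), Slc2a1 (−1.46), Traf4 (−0.042), Ube2c (−0.67) and Ube2l3 (−0.99). With only the 6 compared libraries fitted the sign of the log2 difference changed for Bax (−0.045), Cd47 (−0.12), Cdkn1b (−0.048), Ctsb (−0.12), Gnas (−0.076) and Slc2a1 (−0.062). With upper quartile factors the sign of the log2 difference changed for Prdx1 (0.051). Over the fits without 1 library the log2 difference ran from −0.16 to 0.18 for Cd47, −0.18 to 0.36 for Cdkn1b, −0.22 to 0.39 for Ctsb, −0.28 to 0.065 for Ctsd, −0.092 to 0.81 for Dhrs13, −0.059 to 0.14 for Gnas, −0.36 to 1.05 for Nek8, −0.20 to 0.36 for Slc2a1 and −0.64 to 0.16 for Slc2a3, each of which did not pass in the full fit.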
